A study of Mus musculus with 12 samples.

Results

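C3, C4b, Serping1, Serpina3n, Lcn2, Ccl2, Ccl5, Cxcl10, Cxcl12 and Cxcl14 are genes of the complement cascade, of reactive glia and of the chemokine family. They were chosen by symbol, as 10 of the 17365 genes in a table of read counts from cultured adult mouse neural stem cells (NSCs). Earlier results of these data were known when the 10 genes and the gene lists below were chosen, so comparisons with all genes are descriptive. Of the 10, 8 could be read. Ccl5 and Cxcl12 were too low, with at most 8 and 6 counts in any library.

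The 12 libraries are bulk RNA-seq of NSCs isolated from the subventricular zone of mice 6 to 8 weeks old and kept on laminin in serum-free medium at passages below 10. In EGF/FGF, the proliferating state, cells received EGF and FGF2. In BMP, the dormant quiescent state (d-qNSCs), they received BMP-4 for 3 days, and in BMP/FGF, the primed quiescent state (p-qNSCs), BMP-4 together with FGF2 for 3 days, in both cases without EGF and with each factor at 10 ng/ml. Each condition holds 4 libraries, 2 of the line ANS4 (MF1 strain) and 2 of the line BL6 (C57BL/6 strain). Each strain is represented by a single line, so line and strain cannot be told apart. The comparisons ask how these inflammation-associated genes differ between proliferating, dormant and primed NSCs.

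Complement is a cascade of plasma proteins in which C1 proteases cleave C4, and the convertase that follows cleaves C3, the protein on which all activation routes meet. Serping1 encodes C1 inhibitor, the serpin that blocks the C1 proteases. In the brain C3, C4 and the acute phase genes Serpina3n (a secreted serine protease inhibitor) and Lcn2 (lipocalin 2, a siderophore-binding protein) are known as genes of reactive astrocytes. Chemokines are small secreted ligands of G protein-coupled receptors. Ccl2 attracts monocytes through Ccr2, Ccl5 attracts T cells, Cxcl10 is an interferon-induced ligand of Cxcr3, Cxcl12 is the ligand of Cxcr4 and Ackr3, and Cxcl14 is a homeostatic chemokine.

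Promoter windows from 250 bases before to 50 after the start were taken from RefSeq (GRCm38.p6), where 6 of the 10 genes had an entry: C3, Serpina3n, Lcn2, Cxcl10, Cxcl12 and Cxcl14. Each window was searched on both strands for the C/EBP motif TTGCNNAA, the interferon-stimulated response element core GAAANNGAAA, the AP-1 motif TGANTCA, the STAT motif TTCNNNGAA, the SMAD motif GGCGCC and the NF-kB motif. Of all 32851 windows, 10.8% held the C/EBP motif, 3.44% the response element core, 7.81% AP-1, 8.3% STAT, 11.9% the SMAD motif and 4.51% NF-kB. The stretches below belong to the genes with the largest rises in BMP and to the chemokine gene among the 10 with the largest rise from BMP to BMP/FGF. The Lcn2 stretch lies within the gene span given below, since annotated starts of this gene differ. They are read 5′ to 3′ along the gene, which lies on the minus strand in each case, with the motif in capitals.
C3, C/EBP motif at 45 to 38 bases before the start (chr17:57228163-57228192): aggaaactatgTTGCGAAAttttgggcagt
Lcn2, C/EBP motif at 216 to 209 bases before the start (chr2:32387937-32387966): agcccttcctgTTGCTCAAccttgcacagt
Cxcl10, response element core at 213 to 204 bases before the start (chr5:92349083-92349112): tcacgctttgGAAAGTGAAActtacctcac
Cxcl10, NF-kB motif at 159 to 150 bases before the start (chr5:92349029-92349058): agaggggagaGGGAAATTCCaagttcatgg
Cxcl10, NF-kB motif at 103 to 94 bases before the start (chr5:92348973-92349002): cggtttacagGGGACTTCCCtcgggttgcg
The Cxcl10 window also held an AP-1 motif at 74 to 68 bases, the Cxcl14 window a response element core and a STAT motif, and the Cxcl12 window a SMAD motif. These motifs did not overlap one another within a window. The Serpina3n window held none of the 6. A match describes letters only, and binding was not measured.

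Library totals were 18069052 to 19451818 counts, so that 3 counts corresponded to 0.155 to 0.168 counts per 1000000 (CPM, scaled by TMM factors of 0.972 to 1.03). Levels are in CPM, given for ANS4 replicates 1 and 2 and then BL6 replicates 1 and 2, or as the mean ± SD of the 4 libraries. Fold changes are log2 values from edgeR's quasi-likelihood fit over 13312 genes, with the standard error (SE) and the false discovery rate (FDR). Neural stem and astroglial markers, all 8 of them read, summed to 4999 to 5661 CPM in EGF/FGF. The sums were 6701 to 8018 CPM in BMP and 9863 to 10352 CPM in BMP/FGF. Not all members followed the sum, such as Nes, nestin, with means of 569, 126 and 115 CPM in the 3 states, and Fabp7, with 2409, 475 and 1385 CPM.

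In BMP, 7 of the 8 readable genes were higher than in EGF/FGF and Cxcl14 was lower, and the same held in BMP/FGF. For Lcn2, being higher followed in part from passing the expression filter, as described below. Of all genes tested, 79.6% were called in BMP against EGF/FGF (40.8% higher, 38.8% lower) and 78.9% in BMP/FGF against EGF/FGF (40.9% higher, 38% lower). In both comparisons the libraries of each of the 8 genes did not overlap (exact permutation p = 0.0286, two-sided, the smallest that 4 against 4 libraries can give), as was the case for 71.1% and 75.8% of all genes. From BMP to BMP/FGF, C4b, Serpina3n, Cxcl10 and Cxcl14 were higher, C3 and Serping1 were lower, and Lcn2 and Ccl2 were not called, where 41.4% of all genes were called (20.1% higher, 21.3% lower). These 6 genes did not overlap between BMP and BMP/FGF, against 35.6% of all genes. The 3 comparisons share libraries and are not independent of each other. In bulk RNA, more cells expressing a gene and more RNA per cell cannot be told apart.

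**Figure D1:**
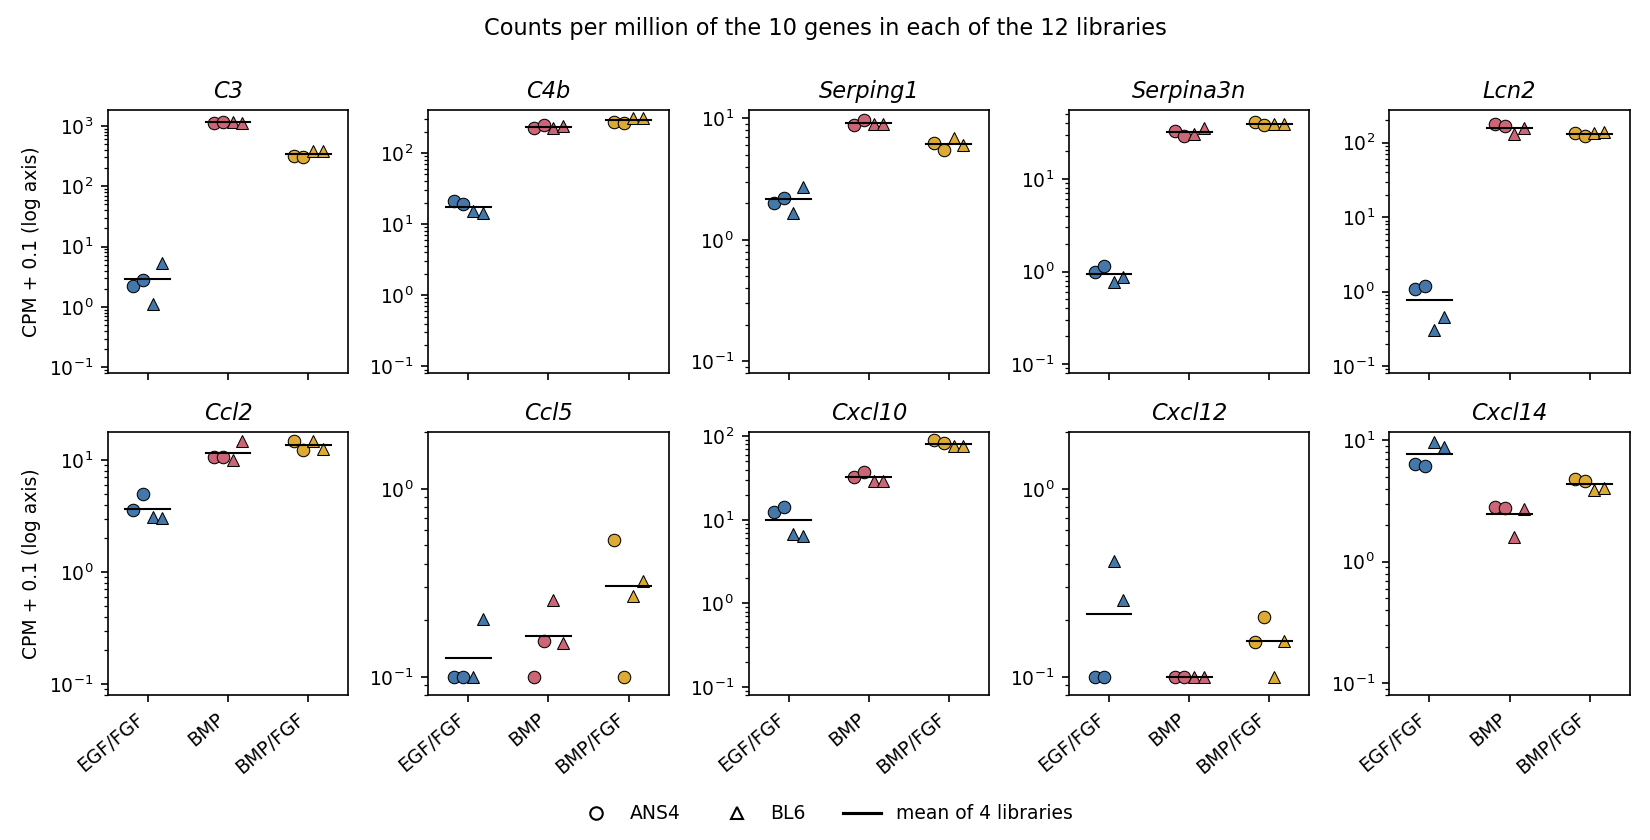
Level of each of the 10 genes (CPM plus 0.1, log axis) in every library by condition, with circles for ANS4, triangles for BL6 and a bar at the mean of 4 libraries. The mean of C3 is 2.79 CPM in EGF/FGF, 1139 in BMP and 342 in BMP/FGF, Cxcl14 is highest in EGF/FGF, and Ccl5 and Cxcl12 stay below 0.5 CPM in every library.

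Among the complement genes, C3 had the widest range of the 10. It lies on chromosome 17 (GRCm38, 57203970 to 57228136, minus strand, 41 exons in its longest coding transcript). Its levels in EGF/FGF were 2.12, 2.69, 1.04 and 5.32 CPM. In BMP they were 1118, 1159, 1154 and 1124 CPM. In BMP/FGF they were 312, 302, 377 and 377 CPM. All BMP libraries lay within a narrow band, and all BMP/FGF libraries stood between the other states. The rise from EGF/FGF was 8.67 in BMP (SE 0.23, 95% interval 8.19 to 9.16, FDR = 4.83e-16), a 409-fold difference, and it ranked 5 from the top among all log2 changes. In BMP/FGF the rise was 6.93 (SE 0.23, FDR = 4.99e-15), or 122-fold. C3 was therefore 3.35-fold lower in BMP/FGF than in BMP (−1.74, SE 0.14, FDR = 7.99e-08), which ranked 65 from the bottom.

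C4b, the C4 gene of the cascade (chromosome 17, 34728380 to 34743882, minus strand), measured 21.3, 19.0, 15.3 and 14.0 CPM in EGF/FGF. It measured 227, 247, 228 and 241 CPM in BMP and 273, 264, 306 and 311 CPM in BMP/FGF. In contrast to C3, its highest libraries were those of BMP/FGF. C4b rose by 3.76 in BMP (SE 0.10, FDR = 1.77e-15) and by 4.06 in BMP/FGF (SE 0.10, FDR = 1.02e-15). The step from BMP to BMP/FGF was small, at 0.29 (SE 0.09, 95% interval 0.10 to 0.48, FDR = 0.0148), and it was not called without BL6 BMP/FGF replicate 1 (0.25, FDR = 0.0602) or replicate 2 (0.23, FDR = 0.0672). The near-identical neighbour gene C4a took 3.75 to 9.93% of the summed counts of both genes in the EGF/FGF libraries. In BMP its share was 1.65 to 2.15%, and in BMP/FGF it was 1.39 to 2.11%. Reads that match both genes were divided between them by estimation.

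Serping1 (chromosome 2, 84765387 to 84775444, minus strand) stood at 1.91, 2.12, 1.56 and 2.63 CPM in EGF/FGF. It stood at 8.78, 9.57, 8.91 and 8.91 CPM in BMP and at 6.19, 5.33, 6.76 and 5.92 CPM in BMP/FGF. As for C3, BMP/FGF lay between the other states. The rise was 2.13 in BMP (SE 0.15, FDR = 1.90e-10) and 1.55 in BMP/FGF (SE 0.15, FDR = 2.88e-08). From BMP to BMP/FGF Serping1 fell by 0.58 (SE 0.12, FDR = 0.00128).

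The wider complement list held 52 genes, of which 37 were in the table and 26 were tested. In BMP, 19 were higher and 5 lower than in EGF/FGF, with a median log2 change of 2.49 against 0.019 over all genes tested and 92.3% called against 79.6%. Without C3, C4b and Serping1 the counts were 16 and 5 of 23, and the median was 1.95. Some of the genes called higher, such as Hc and Cfi (0.155 and 0.336 CPM in EGF/FGF), passed the expression filter only through BMP or BMP/FGF libraries. For them, being higher there followed from passing and is no separate result, and the counts and medians include them. Besides C3, the largest rises of named genes were those of Clu, the terminal pathway regulator clusterin, from 18.9 ± 4.34 to 824 ± 45.9 CPM (5.46, SE 0.10, FDR = 7.54e-17), and Cd59a, an inhibitor of the membrane attack complex, from 0.543 ± 0.088 to 21.9 ± 4.90 CPM (5.31, SE 0.23, FDR = 5.80e-15). The falls were led by Itgam, the alpha chain of complement receptor 3, from 9.89 ± 2.15 to 3.37 ± 0.40 CPM, by C1qbp, a mitochondrial protein that also binds C1q, from 187 ± 11.7 to 67.3 ± 2.26 CPM, and by Cfp, properdin, from 4.37 ± 0.40 to 2.44 ± 1.02 CPM.

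The C1 proteases that Serping1's product inhibits were looked at after their values were seen. C1ra rose from 2.94 to 35.9 CPM on average in BMP (3.60, SE 0.12, FDR = 8.12e-15) and C1s1 from 2.28 to 65.9 CPM (4.85, SE 0.15, FDR = 1.47e-15). In BMP/FGF, 20 complement genes were higher and 4 lower than in EGF/FGF, with a median of 2.12. The share called was 92.3%, against 78.9% of all genes, and again includes genes that passed the filter only through BMP or BMP/FGF libraries. Clu reached 445 ± 11.3 CPM and Cd59a 13.5 ± 0.85 CPM. Between the quiescent states 3 genes were higher and 11 lower in BMP/FGF, and 12 were not called (median −0.25, against −0.0035 over all genes). The share called was 53.8%, against 41.4% of all genes. C2, the protease partner of C4, rose by 0.89 (SE 0.25, FDR = 0.00849), at low levels of 1.17 ± 0.56 CPM in BMP and 2.11 ± 0.14 in BMP/FGF. Itgam rose by 0.69 (SE 0.16, FDR = 0.00224), next to C4b. With C3, Cfi, the protease that inactivates C3b, fell by 1.13 (SE 0.23, FDR = 0.000635), from 2.46 ± 0.54 to 1.12 ± 0.23 CPM. Hc, complement component C5, fell by 1.11 (SE 0.25, FDR = 0.00147), from 2.05 ± 0.08 to 0.950 ± 0.31 CPM. C1s1 was lower as well, by −0.80 (SE 0.10, FDR = 5.52e-06), and C1ra by −0.26 (SE 0.09, FDR = 0.0259). The related genes C1s2, C1rb and C1rl were not called between the quiescent states. C1qa, C1qb and C1qc were not analysed here. C3ar1, the receptor of the C3a fragment, had 0 to 3 counts in any library and was not tested.

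Among the reactive glia genes, Serpina3n (chromosome 12, 104406729 to 104414329, plus strand) was near the detection limit in EGF/FGF, with 0.880, 1.03, 0.676 and 0.775 CPM, or 13 to 20 counts. It reached 32.4, 28.5, 30.5 and 35.0 CPM in BMP and 40.8, 38.3, 39.3 and 38.9 CPM in BMP/FGF. All BMP/FGF libraries stood above all BMP libraries. The rise was 5.22 in BMP (SE 0.16, FDR = 2.62e-16) and 5.54 in BMP/FGF (SE 0.16, FDR = 2.08e-16), and the difference between them was 0.32 (SE 0.08, FDR = 0.00330). That last difference was not called in BL6 alone (0.26, FDR = 0.0521). Serpina3n belongs to a cluster of related genes, and 4 of its paralogs that passed the filter, Serpina3f, Serpina3g, Serpina3i and Serpina3m, had at most 1 count per library in EGF/FGF. They passed only through BMP or BMP/FGF libraries, so being higher there than in EGF/FGF followed from passing and is no separate result. Against a floor of 3 counts per library (0.155 CPM), Serpina3i was at least 10.8-fold higher in BMP (1.68 ± 0.42 CPM) and at least 22.1-fold higher in BMP/FGF (3.43 ± 0.57 CPM). Serpina3f, Serpina3g and Serpina3m averaged 0.552 to 1.03 CPM in BMP and 0.754 to 1.44 CPM in BMP/FGF. Serpina3b, Serpina3c and Serpina3k did not pass the filter, with at most 12 counts in any library. The division of reads between these paralogs was estimated and is uncertain.

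Lcn2 (chromosome 2, 32384633 to 32388252, minus strand) had the second largest rise of the 10 in BMP. In EGF/FGF it measured 0.983, 1.08, 0.208 and 0.361 CPM, which in BL6 was 4 and 7 counts. In BMP it measured 180, 168, 131 and 160 CPM, and in BMP/FGF 136, 122, 136 and 138 CPM. The BMP and BMP/FGF libraries overlapped, and both stood far above EGF/FGF. Lcn2 would not have passed the filter on its EGF/FGF libraries alone. Being higher in BMP and BMP/FGF therefore followed in part from passing it, which limits the tests and ranks against EGF/FGF. Lcn2 rose by 7.91 in BMP (SE 0.30, 95% interval 7.28 to 8.53, FDR = 2.45e-16) and by 7.65 in BMP/FGF (SE 0.30, FDR = 4.09e-16), which are 240-fold and 200.3-fold differences and ranked 9 and 5 from the top among all genes. Between the quiescent states the difference of −0.26 (SE 0.10, 95% interval −0.48 to −0.04, FDR = 0.0550) was not called, but under DESeq2's size factors it was (−0.27, FDR = 0.0455), as it was with library size only (−0.30, FDR = 0.0241), in the 8 libraries compared (−0.26, FDR = 0.0265), in ANS4 alone (−0.43, FDR = 0.000117) and without ANS4 EGF/FGF replicate 2, BL6 BMP replicate 1, BL6 BMP/FGF replicate 2 or BL6 EGF/FGF replicate 1 (−0.34 to −0.26, FDR = 0.0178 to 0.0460). Slc22a17, which encodes a cell-surface lipocalin 2 receptor, rose from 64.9 ± 7.08 CPM in EGF/FGF to 264 ± 21.7 CPM in BMP (2.03, SE 0.07, FDR = 4.47e-14) and reached 245 ± 21.1 in BMP/FGF (1.92, SE 0.07, FDR = 9.12e-14).

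A list of 39 genes that mark reactive astrocytes was in the table in full, and 34 of them were tested. In BMP 23 were higher and 8 lower than in EGF/FGF (median 1.76), and in BMP/FGF 26 were higher and 6 lower (median 2.34). These were 91.2% and 94.1% of the genes tested, against 79.6% and 78.9% of all genes, whose medians were 0.019 and 0.022. Without C3, C4b, Serping1, Serpina3n, Lcn2 and Cxcl10, which are on it, the counts were 17 and 8 of 28 (median 1.06) and 20 and 6 of 28 (median 1.81). Some genes called higher, such as Steap4 (0.155 CPM in EGF/FGF), passed the filter only through BMP or BMP/FGF libraries. For them, being higher there followed from passing, and the counts and medians include them. C3, Lcn2 and Serpina3n had the 3 largest rises of the list in both comparisons. Its falls in BMP were led by Fkbp5, a glucocorticoid-responsive chaperone, from 99.9 ± 2.05 to 30.4 ± 2.09 CPM, by S100a10, from 24.3 ± 1.31 to 9.55 ± 0.62 CPM, and by B3gnt5, a glycosyltransferase, from 25.4 ± 3.08 to 10.3 ± 1.42 CPM. In BMP/FGF the falls of Tm4sf1 (−1.97, SE 0.20, FDR = 3.70e-08) and Clcf1, a cytokine of the interleukin 6 family (−1.41, SE 0.13, FDR = 2.03e-08), were larger than that of Fkbp5 (−1.06, SE 0.07, FDR = 1.15e-10).

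From BMP to BMP/FGF, 21 of the 34 were higher and 4 lower (median 0.35), or 73.5% called against 41.4% of all genes. Iigp1, an interferon-induced GTPase, rose from 3.40 ± 1.41 to 16.9 ± 1.33 CPM (2.35, SE 0.17, FDR = 8.25e-09), Timp1, a metalloproteinase inhibitor, from 14.1 ± 0.69 to 37.9 ± 3.00 CPM (1.43, SE 0.08, FDR = 1.49e-09), and Cxcl10 had the next largest rise. Lower beside C3 were Steap4, a metalloreductase, by −1.18 (SE 0.19, FDR = 9.16e-05) and Tm4sf1 by −0.89 (SE 0.21, FDR = 0.00282).

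**Figure D2:**
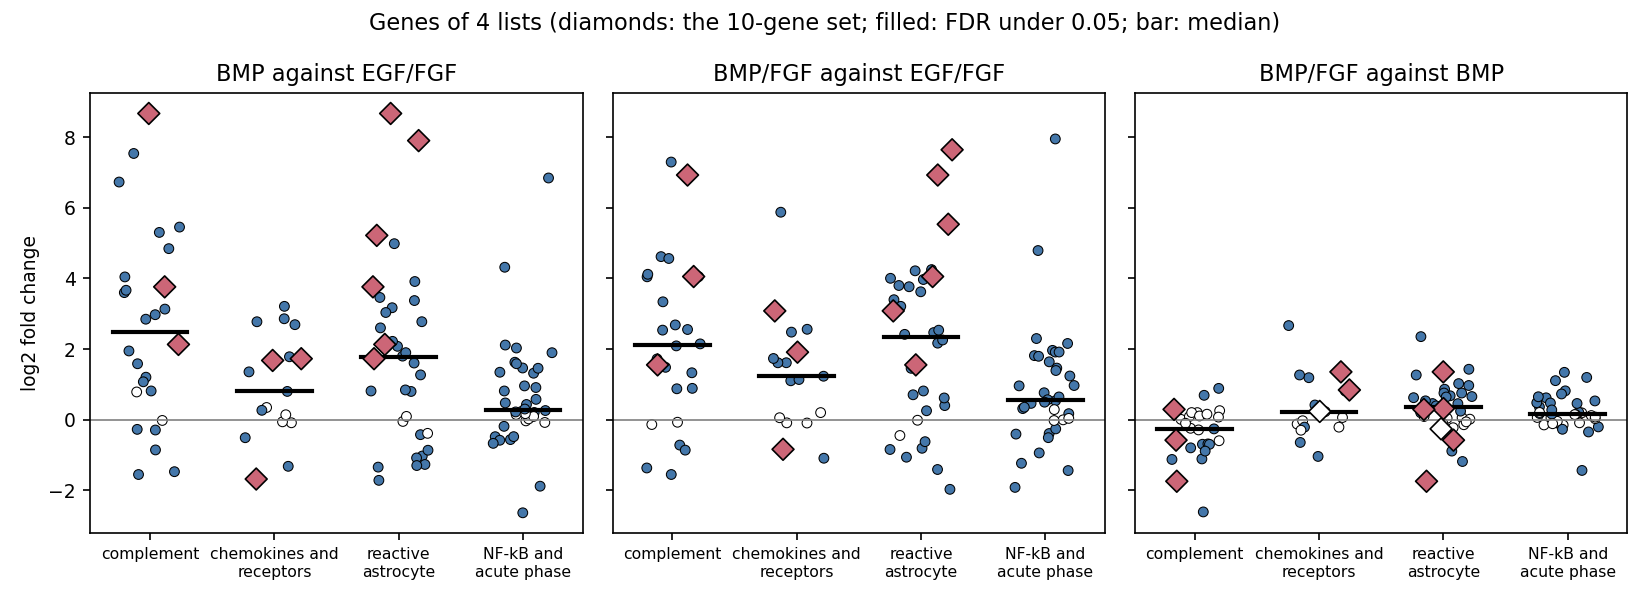
log2 fold change of each tested gene of 4 lists in the 3 comparisons, with diamonds for the 10-gene set, filled symbols for FDR under 0.05 and a bar at the median of the list. The complement median is 2.49 in BMP against EGF/FGF and −0.25 in BMP/FGF against BMP, and values of genes with almost no counts in a state depend on the prior count of the fit.

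Of the chemokine genes, Cxcl10 (chromosome 5, 92346638 to 92348889, minus strand) was the only member with a rise above 1 at both steps. In EGF/FGF it measured 12.3, 14.3, 6.71 and 6.25 CPM, with ANS4 above BL6. In BMP it measured 32.4, 37.5, 29.2 and 29.4 CPM. In BMP/FGF it measured 89.1, 83.4, 77.4 and 77.1 CPM. The 3 states did not overlap. Cxcl10 rose by 1.73 in BMP (SE 0.14, FDR = 1.53e-09) and by 3.08 in BMP/FGF (SE 0.13, FDR = 4.27e-13). BMP/FGF exceeded BMP 2.56-fold (1.35, SE 0.12, 95% interval 1.11 to 1.60, FDR = 1.26e-07), which ranked 153 from the top among all genes. The related ligand Cxcl9 had at most 1 count per library in EGF/FGF. The BMP libraries held 4 to 6 counts of it and the BMP/FGF libraries 25 to 42 (1.91 ± 0.40 CPM), at least 12.3-fold above the floor of 3 counts in EGF/FGF. From BMP to BMP/FGF Cxcl9 rose by 2.67 (SE 0.35, FDR = 2.91e-06). Cxcl9 passed the filter only through BMP/FGF libraries, so being higher there than in the other states followed from passing it. Cxcr3, the receptor of both ligands, was not analysed here.

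Ccl2 (chromosome 11, 82035571 to 82037453, plus strand) stood at 3.52, 4.86, 3.02 and 2.94 CPM in EGF/FGF. It stood at 10.7, 10.5, 9.90 and 14.8 CPM in BMP and at 14.7, 12.3, 14.6 and 12.5 CPM in BMP/FGF. BMP and BMP/FGF overlapped. Ccl2 rose by 1.68 in BMP (SE 0.17, FDR = 3.51e-08) and by 1.91 in BMP/FGF (SE 0.17, FDR = 5.40e-09). The difference between the quiescent states was 0.23 (SE 0.14, 95% interval −0.07 to 0.54, FDR = 0.203), and without BL6 BMP replicate 2, the highest BMP library, it was 0.41 and was called (FDR = 0.0175). Its neighbour Ccl7 averaged 0.996 ± 0.39 CPM in EGF/FGF, 0.926 ± 0.22 in BMP and 2.12 ± 0.46 in BMP/FGF, and rose from BMP to BMP/FGF by 1.19 (SE 0.25, FDR = 0.000902). Ccr2, the receptor of both, had 0 to 4 counts in any library.

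Cxcl14 (chromosome 13, 56288643 to 56296551, minus strand) was the only readable member that was highest in EGF/FGF, at 6.21, 5.99, 9.57 and 8.68 CPM. It measured 2.70, 2.66, 1.50 and 2.61 CPM in BMP and 4.69, 4.53, 3.80 and 3.91 CPM in BMP/FGF. The order EGF/FGF, BMP/FGF, BMP held without overlap. Cxcl14 fell by 1.68 in BMP (SE 0.20, FDR = 2.97e-07) and by 0.84 in BMP/FGF (SE 0.18, FDR = 0.000352). From BMP to BMP/FGF it rose by 0.84 (SE 0.21, FDR = 0.00354).

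Ccl5 (chromosome 11, 83525778 to 83530518, minus strand) had 0, 0, 0 and 2 counts in EGF/FGF, 0, 1, 3 and 1 in BMP, and 8, 0, 3 and 4 in BMP/FGF. Cxcl12 (chromosome 6, 117168535 to 117181367, plus strand) had 0, 0, 6 and 3 counts in EGF/FGF, none in BMP, which allows up to 0.155 to 0.166 CPM in a library, and 1, 2, 0 and 1 in BMP/FGF. Neither gene passed the filter, and no difference is read from such counts. Without the filter, Ccl5 was called higher in BMP/FGF than in EGF/FGF (FDR = 0.0397) and Cxcl12 lower in BMP (FDR = 0.0353). The receptors of Cxcl12 were read well. Cxcr4 measured 16.3 ± 3.58 CPM in EGF/FGF, 111 ± 9.26 in BMP and 54.0 ± 3.81 in BMP/FGF. It rose by 2.77 in BMP (SE 0.10, FDR = 3.02e-14) and fell by 1.04 from BMP to BMP/FGF (SE 0.09, FDR = 9.85e-08). Ackr3, a scavenging receptor, rose by 2.86 in BMP (SE 0.17, FDR = 1.02e-11), from 2.11 ± 0.80 to 15.2 ± 2.33 CPM, and stood at 12.4 ± 1.81 CPM in BMP/FGF (−0.30 against BMP, SE 0.12, FDR = 0.0649).

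Of 63 chemokine and chemokine receptor genes listed, 45 were in the table and 17 were tested. In BMP 10 were higher and 3 lower than in EGF/FGF (median 0.80). In BMP/FGF 11 were higher and 2 lower (median 1.23), and from BMP to BMP/FGF 7 were higher and 3 lower (median 0.23). The shares called were 76.5%, 76.5% and 58.8%, the first and second of them below those of all genes (79.6% and 78.9%) and the last above it (41.4%). Without Ccl2, Cxcl10 and Cxcl14 the higher and lower counts among 14 genes were 8 and 2, 9 and 1, and 5 and 3. The higher counts include Cxcl9, which passed the filter only through BMP/FGF libraries. Of the genes averaging 1 CPM or more over the libraries, Ackr3 and Cxcr4 rose most in BMP, followed by Ccrl2, a chemokine receptor-like protein, by 1.78 (SE 0.25, FDR = 2.04e-06). Beside Cxcl14, the neutrophil receptor Cxcr2 fell by 1.32 (SE 0.25, FDR = 8.69e-05) and Ccl25 by 0.51 (SE 0.13, FDR = 0.00154). From BMP to BMP/FGF the ligand Cxcl1 rose from 3.55 ± 0.55 to 8.52 ± 0.49 CPM (FDR = 0.000287), while Ccrl2 fell by 0.64 (SE 0.21, FDR = 0.0207) and Cx3cl1, a membrane-bound chemokine, by 0.21 (SE 0.07, FDR = 0.0293).

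NF-kB and acute phase signalling genes are known to lie upstream of or beside several of these genes. Of 48 listed, 36 were tested and none is among the 10. In BMP 22 were higher and 8 lower than in EGF/FGF (median 0.28), in BMP/FGF 24 and 8 (median 0.55), and from BMP to BMP/FGF 16 and 4 (median 0.15). The shares called were 83.3%, 88.9% and 55.6%, against 79.6%, 78.9% and 41.4% of all genes, so that the first lay near the background. Tlr2, a pattern recognition receptor, rose from 0.259 ± 0.19 CPM to 5.29 ± 0.47 in BMP and 7.34 ± 0.94 in BMP/FGF. Tlr2 passed the filter only through BMP and BMP/FGF libraries, so being higher there followed from passing, and the counts above include it. Tnfaip3, an inhibitor of NF-kB signalling, rose from 2.02 ± 0.46 to 8.76 ± 0.58 CPM in BMP (2.11, SE 0.14, FDR = 9.99e-11). Lif, a cytokine of the interleukin 6 family, fell from 22.5 ± 2.59 to 3.61 ± 0.40 CPM in BMP and stood at 8.27 ± 0.48 CPM in BMP/FGF. Il1rap, the interleukin 1 receptor accessory protein, fell from 216 ± 14.5 to 58.5 ± 4.94 CPM in BMP, and Il6ra from 17.1 ± 3.05 to 10.8 ± 2.55 CPM. Vcam1, an adhesion molecule of quiescent NSCs, rose from 190 ± 26.4 CPM in EGF/FGF to 835 ± 28.9 in BMP/FGF. Nfkbiz, a nuclear NF-kB regulator, rose from 59.7 ± 3.93 to 105 ± 5.08 CPM between the quiescent states (0.82, SE 0.07, FDR = 6.81e-08), whereas the endocytic receptor Lrp2 fell by 1.44 (SE 0.13, FDR = 1.09e-07) and Il6st, the shared gp130 receptor chain, by 0.35 (SE 0.06, FDR = 0.000125). The transcripts of the upstream cytokines Tnf, Il6 and Il1a had at most 2 counts in any library.

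**Figure D3:**
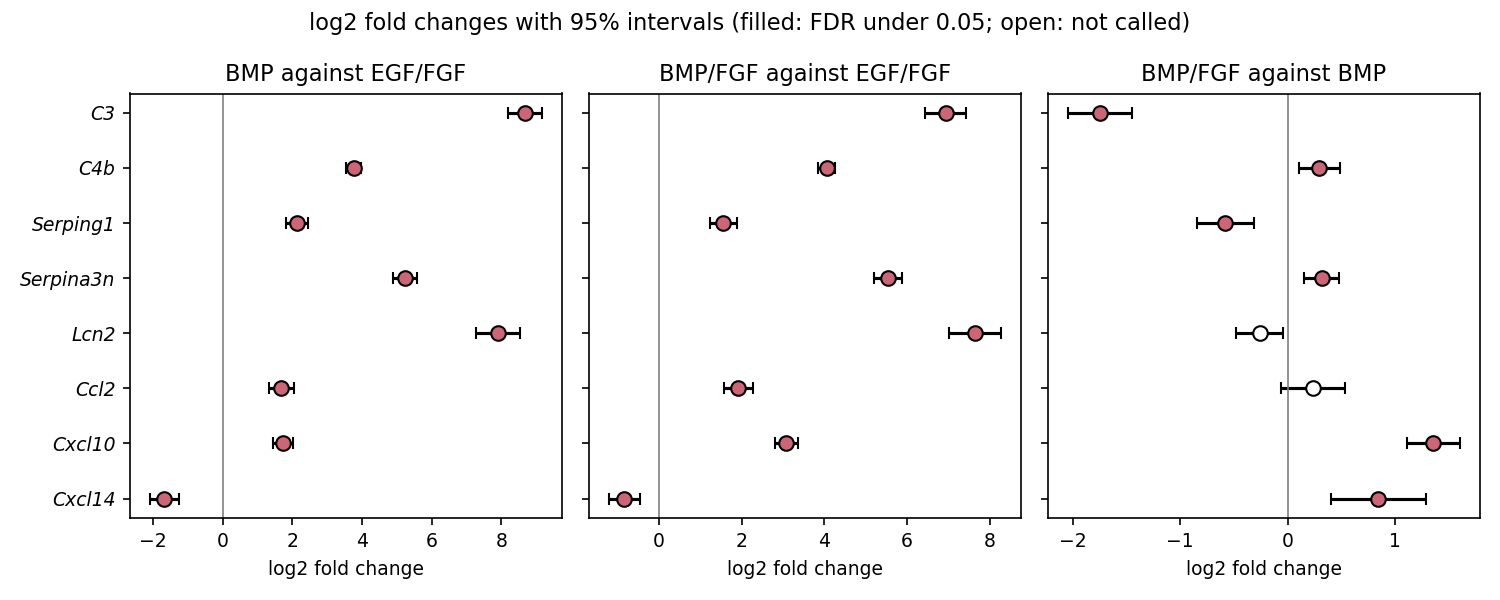
log2 fold change of the 8 readable genes with 95% intervals in the 3 comparisons, filled where the FDR is under 0.05. C3 leads BMP against EGF/FGF at 8.67, and in BMP/FGF against BMP it stands lowest at −1.74 and Cxcl10 highest at 1.35.

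To compare genes with one another, levels were divided by the length of each gene's longest coding transcript. In BMP the order was C3 at 222 ± 4.02 CPM per kb, Lcn2 at 175 ± 22.6, C4b at 43.8 ± 1.84, Cxcl10 at 23.7 ± 2.84, Serpina3n at 15.3 ± 1.33, Ccl2 at 14.1 ± 2.76, Serping1 at 5.11 ± 0.20 and Cxcl14 at 1.30 ± 0.32. Of these neighbours, only Serpina3n and Ccl2 overlapped within 1 SD. In BMP/FGF Lcn2 came first at 145 ± 8.37 CPM per kb, before C3 at 66.6 ± 7.91, Cxcl10 at 60.4 ± 4.22 and C4b at 53.6 ± 4.34. C3 overlapped with Cxcl10 and Cxcl10 with C4b within 1 SD. Serpina3n (19.1 ± 0.51), Ccl2 (16.6 ± 1.62), Serping1 (3.42 ± 0.34) and Cxcl14 (2.32 ± 0.24) followed. In EGF/FGF the order was led by the chemokine genes, with Cxcl10 at 7.31 ± 2.98, Ccl2 at 4.41 ± 1.09 and Cxcl14 at 4.17 ± 0.98 CPM per kb, which overlapped. C4b at 3.23 ± 0.62 overlapped with Cxcl14. Serping1 at 1.16 ± 0.25, Lcn2 at 0.721 ± 0.48, C3 at 0.544 ± 0.35 and Serpina3n at 0.407 ± 0.07 came last, each overlapping with its neighbour in this order.

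**Figure D4:**
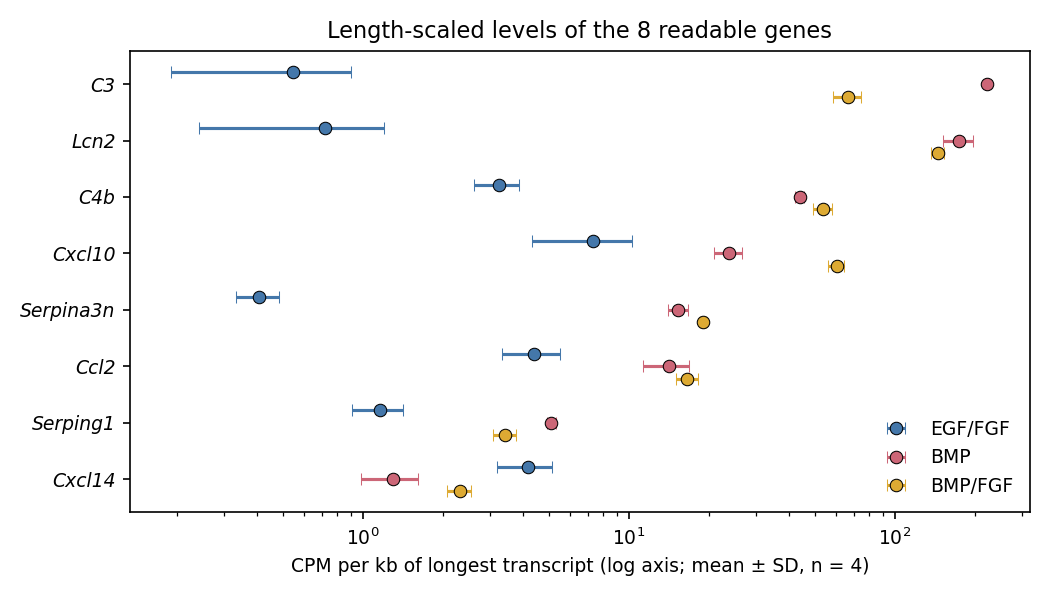
Length-scaled level of the 8 readable genes (CPM per kb of the longest coding transcript, log axis, mean ± SD of 4 libraries) in the 3 conditions. C3 and Lcn2 move from below 1 CPM per kb in EGF/FGF to 222 and 175 in BMP, and Cxcl14 is the only gene whose EGF/FGF level is the highest.

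The estimates of each of the 8 genes had the same sign in ANS4 and in BL6 in all 3 comparisons. The size of the change differed between the lines for some. In BMP against EGF/FGF the line difference, BL6 minus ANS4, was called for 4 of the 8, where 9.02% of all genes were called. It was 0.44 for C4b (SE 0.11, FDR = 0.0222), 1.58 for Lcn2 (SE 0.53, FDR = 0.0486), 0.79 for Cxcl10 (SE 0.15, FDR = 0.00395) and −0.96 for Cxcl14 (SE 0.28, FDR = 0.0415). In BMP/FGF against EGF/FGF, with 4.98% of all genes called, it was 0.65 for C4b (SE 0.11, FDR = 0.00318), 1.93 for Lcn2 (SE 0.53, FDR = 0.0278) and 0.88 for Cxcl10 (SE 0.15, FDR = 0.00219). The Cxcl10 differences stayed called whichever library was left out (FDR up to 0.0325 and 0.0246), as did that of C4b in BMP/FGF (up to 0.0301). In BMP that of C4b was not called without ANS4 BMP replicate 1, ANS4 EGF/FGF replicate 1 or BL6 EGF/FGF replicate 2 (0.36 to 0.38, FDR up to 0.119). The Lcn2 difference in BMP was not called without any one library other than those of BL6 BMP (FDR up to 0.231), that in BMP/FGF without ANS4 BMP/FGF replicate 2 or either BL6 BMP/FGF library or any EGF/FGF library (FDR up to 0.186), and that of Cxcl14 without any one library other than BL6 BMP replicate 2 (FDR up to 0.117). Cxcl10 thus rose by 1.39 in ANS4 and 2.18 in BL6 in BMP, and by 2.70 and 3.57 in BMP/FGF. Between the quiescent states, where 13.5% of all genes were called, edgeR called 0 of the 8, with 2 of them (C4b and Lcn2) at an unadjusted p under 0.05, and the DESeq2 Wald test also called 0.

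By construction, each of these line differences is the BL6 minus ANS4 level in BMP or BMP/FGF less that in EGF/FGF, from the same libraries. In EGF/FGF BL6 stood below ANS4 for C4b (14.7 against 20.1 CPM, −0.46, SE 0.09, FDR = 0.00685), Lcn2 (0.285 against 1.03 CPM, −1.83, SE 0.52, FDR = 0.0258) and Cxcl10 (6.48 against 13.3 CPM, −1.04, SE 0.12, FDR = 5.95e-05) and above it for Cxcl14 (9.12 against 6.10 CPM, 0.58, SE 0.16, FDR = 0.0348). These are 4 of 8, with 6.75% of all genes called. In BMP only Lcn2 was called (146 against 174 CPM, −0.26, SE 0.08, FDR = 0.0339), with 23% of all genes called, and in BMP/FGF the FDR of the 8 genes ran from 0.186 to 0.997, with 0.736% of all genes called. For C3 no line difference against EGF/FGF can be read, since the BL6 EGF/FGF replicates had 20 and 103 counts. Its line difference in BMP against EGF/FGF was −0.40 (SE 0.43, FDR = 0.611), 1.20 without the second of them (FDR = 0.0190) and −1.14 without the first (FDR = 0.00251). Between the quiescent states the line difference of C3 was 0.30 (SE 0.21, FDR = 0.374). It was called in the 8 libraries compared (FDR = 0.0327) and without BL6 EGF/FGF replicate 1 or 2 (FDR = 0.0336 and 0.0337).

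**Figure D5:**
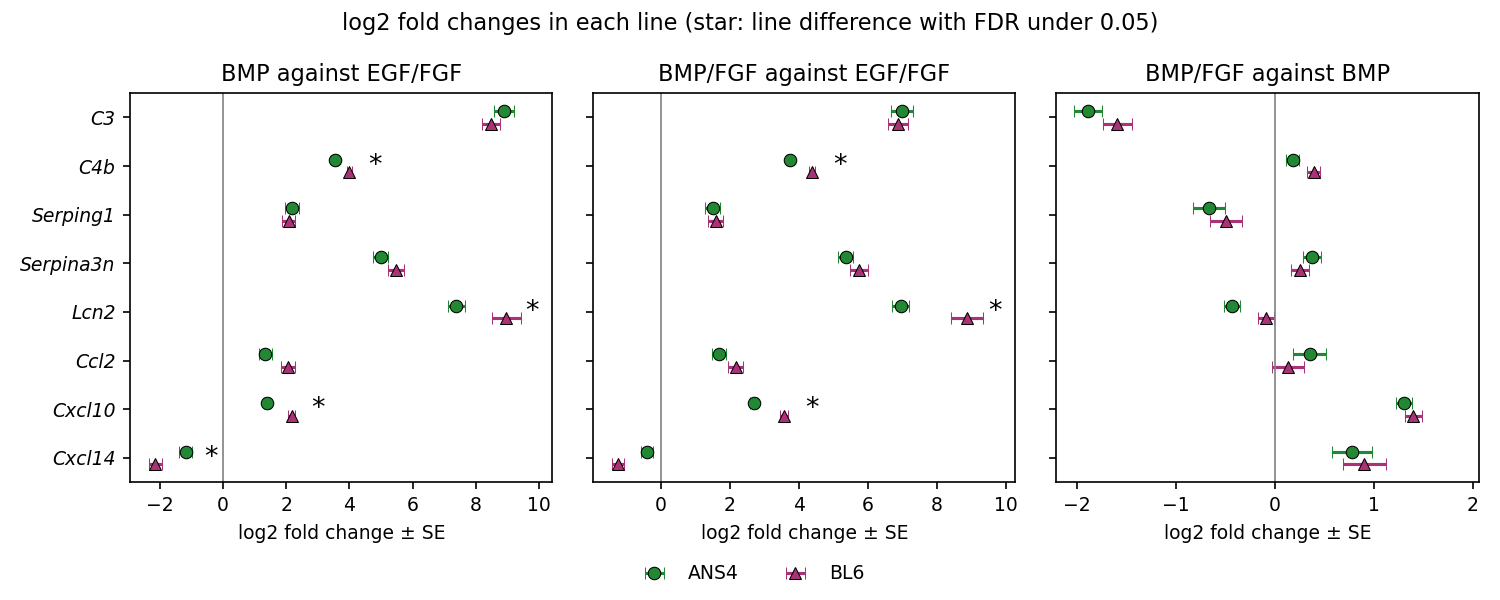
log2 fold change ± SE of the 8 readable genes in ANS4 (circles) and BL6 (triangles) in the 3 comparisons, with a star where the line difference has an FDR under 0.05. Stars stand at C4b, Lcn2, Cxcl10 and Cxcl14 in BMP against EGF/FGF and at C4b, Lcn2 and Cxcl10 in BMP/FGF against EGF/FGF.

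The genes whose log2 CPM followed each member most closely over the 12 libraries were named by Pearson's r, which here mostly describes the order of the 3 states, because the libraries fall into 3 groups. C3 was followed by Ddo (r = 0.998), Ndrg4 (0.996) and Plscr4 (0.996). Serping1 was followed first by C3 (0.993). Serpina3n was followed by Enpp2 (0.999) and Phyhipl (0.999), and C4b by 4930402H24Rik (0.999), Ccndbp1 (0.998) and again Phyhipl (0.998). Lcn2 was followed by Mgat3 (0.999), Bmf (0.998) and Ntrk2 (0.998), the last a receptor that went from 458 CPM in EGF/FGF to 3883 in BMP. Cxcl10 was followed by Nol3 (0.995), the interferon-induced gene Ifi27 (0.995) and Rnf215 (0.994). For Ccl2 the closest gene was Qsox1 (0.992) and for Cxcl14 Adgra2 (0.974).

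Markers of other cells that the cultures could hold were read beside these results. Of 12 microglia and macrophage markers, 7 were in the table and 4 were tested. Their sums ran over 59.0 to 69.6, 57.8 to 68.4 and 79.8 to 86.7 CPM in EGF/FGF, BMP and BMP/FGF. Itgam averaged 9.89, 3.37 and 5.43 CPM in these states, Cd68 4.12, 1.15 and 2.43 CPM and P2ry12 1.37, 2.15 and 2.41 CPM. Csf1r was at 0 in BMP and had at most 2 counts elsewhere, and Tmem119 had at most 4. Endothelial markers (6 of 8 in the table) summed to 39.2 to 47.2, 5.68 to 9.74 and 15.0 to 19.1 CPM, mostly Flt1, and mural and fibroblast markers (7 of 8, Lum at 0 in BMP) to 5.31 to 6.16, 6.11 to 7.52 and 9.75 to 13.6 CPM. Ependymal markers (5 of 6, Pifo at 0 in EGF/FGF) summed to 62.4 to 82.7, 192 to 229 and 196 to 203 CPM, oligodendrocyte lineage markers (8 of 8) to 1519 to 1686, 812 to 1271 and 950 to 1037 CPM, and neuroblast markers (6 of 6) to 450 to 504, 838 to 1477 and 388 to 429 CPM. The part of the ependymal, oligodendrocyte lineage, neuroblast and astroglial markers in the changes described was not tested.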

How the data were processed

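Read counts per gene came from 12 bulk RNA-seq libraries. The authors trimmed reads (Trim Galore 0.5.0), estimated transcript abundances with kallisto 0.44.0 on mm10 and deposited them as whole-number counts per gene. A separate deposited table holds log2 values, the rlog transform of DESeq2 1.27.32, and served only as an alternative. kallisto divides reads between similar transcripts by estimation, which makes paralogs uncertain.

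Groups were taken from the labels, which describe replicates only by number. The paper gives 2 biological replicates for the RNA-seq without saying whether these are cultures or lines, so p-values may still measure technical spread. Between replicates, chi-square per degree of freedom was 11.8 in BL6 BMP and 2.10 to 4.59 in the other groups. Genes were filtered with filterByExpr (13312 kept, 4053 not), scaled by TMM and tested with edgeR 4.0.16 (R 4.3.3, quasi-likelihood, condition and line as terms, all 12 libraries, Benjamini-Hochberg FDR under 0.05). SEs are Wald SEs from the same fit. Line differences came from a fit with the interaction. Permutation tests used log2(CPM + 0.1), and correlations log2 CPM with a prior count of 2. The tests were tried on simulated counts. In these, unlike in the data, few genes changed and all groups had the same spread, so recovery in the data may differ. For line differences in BMP against EGF/FGF, edgeR recovered 13 of 50 at a log2 size of 0.5 and 35 of 50 at 1. A line difference that was not called may therefore have been missed. Library totals ran from 18069052 to 19451818 counts, and intervals of low counts cover counting error only. Alternatives were DESeq2 1.42.0 size factors and Wald test, library size only, no filter, no line term, a replicate block, the 8 libraries compared, each line alone, each library left out, and limma 3.58.1 on the deposited log2 values.

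The 10 genes and the lists were chosen with earlier results of these data known. Named were all 10, their receptors and paralogs, per list and comparison the 3 largest called rises and falls with a mean of at least 1 CPM, and up to 3 genes most correlated with each member. The levels of BL6 against ANS4 within a condition were compared after the values were seen. Values of some single genes are not reported here, whereas list counts, medians and marker sums include them.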

Additional observations from a re-analysis of the deposited data

Results flagged for a closer look

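In 3 of 24 sets of 4 libraries (8 genes in 3 conditions), a single library lay apart by Dixon's criterion, which by chance marks about 1 in 20 sets. Lcn2 in ANS4 BMP/FGF replicate 2 was at 122 CPM (121.5), with the other libraries at 136 to 138. Ccl2 in BL6 BMP replicate 2 was at 14.8 CPM, with the others at 9.90 to 10.7. Cxcl14 in BL6 BMP replicate 1 was at 1.50 CPM, with the others at 2.61 to 2.70.

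The change from EGF/FGF differed between BL6 and ANS4, by an interaction term, in 7 cases. In BMP the difference, BL6 minus ANS4, was 0.44 for C4b, 1.58 for Lcn2, 0.79 for Cxcl10 and −0.96 for Cxcl14. In BMP/FGF it was 0.65 for C4b, 1.93 for Lcn2 and 0.88 for Cxcl10. Without BL6 BMP replicate 1, the library in which Cxcl14 lay apart, its difference was −0.62 and was not called (FDR = 0.117).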

How the results depend on the processing

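Under every alternative run, the 8 readable genes kept their direction and their call in BMP and in BMP/FGF against EGF/FGF. Without the filter, 2 of the 10 genes were called lower in BMP, the second being Cxcl12 at 0 counts there, 8 were called higher in BMP/FGF against EGF/FGF, with Ccl5 added, and 7 and 5 chemokine genes were called lower in BMP and BMP/FGF against EGF/FGF. In ANS4 alone 3 complement genes were called lower in BMP. In BL6 alone 5 complement genes were called higher and 1 chemokine gene lower from BMP to BMP/FGF. With single libraries left out, the chemokine genes called lower there numbered 1 to 4 and the NF-kB and acute phase genes 2 to 4. The counts of line differences moved most. In BMP against EGF/FGF the member called lower was lost (0) without the filter, with the DESeq2 Wald test, with the replicate block and in the 8 libraries, which also called 1 higher in place of 3. In BMP/FGF against EGF/FGF library size only and the 8 libraries called 1 lower. In BMP/FGF against BMP the replicate block and the 8 libraries called 1 higher. With single libraries left out, 1 to 4 were higher and 0 to 1 lower in BMP, 0 to 1 lower in BMP/FGF, and 0 to 1 higher between the quiescent states, where the lone library of an arm was assumed to vary like the others.

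The Lcn2 line difference was not called without the filter (1.58, FDR = 0.0808 in BMP, and 1.93, FDR = 0.0511 in BMP/FGF). Leaving out single libraries turned the sign of these line differences, none called with all libraries: in BMP against EGF/FGF that of C3 ran from −1.14 to 1.20 and that of Serping1 from −0.43 to 0.33. In BMP/FGF against EGF/FGF C3 ran from −0.85 to 1.50 and Serping1 from −0.25 to 0.51. Between the quiescent states Cxcl10 ran from −0.0143 to 0.21, Cxcl14 from −0.22 to 0.57 and Ccl2 from −0.48 to 0.10. The labels do not say that replicate numbers pair samples. Deviations of replicates with the same number correlated at −0.0711 to 0.0529 over all genes tested and at −0.179 to 0.306 over the 9967 genes with a mean log2 CPM above 3, not above 0.1 in every pair, so the numbers were not taken as pairs. Apart from the calls named, the replicate block changed no call of a member. The causes of these changes were not tested. Depth limited Ccl5 and Cxcl12, and Lcn2 in BL6 EGF/FGF (4 and 7 counts).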
